A study of Mus musculus with 4 samples.

Results

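The genes described here encode the proteins of the cytosolic ribosome in Beta-TC-6, an established line of mouse insulin-producing cells, transfected either with siRNA to NF90 or with a control siRNA. They were taken by name. A gene was a member when a probe set carried as its only symbol an Rpl or Rps name, Rplp0 to Rplp2 or Rpsa, leaving out the kinases named Rps6k and names of processed pseudogenes. This gave 67 genes of the 22180 that could be named, 42 of the large subunit and 25 of the small subunit. Of these, 58 belong to the 80 proteins of the standard mouse ribosome, 35 of 47 in the large subunit and 23 of 33 in the small one. The other 9 are paralogues or genes named as such. Of the 22 standard proteins without a member, 12 had only probe sets with several symbols and 9 were not analysed here. The last is Fau, the precursor of a small subunit protein, which lies outside the naming rule. It was measured at 7.11 and 6.98 in siNTC and at 7.25 and 7.14 in siNF90.

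The siNF90 group had 2 arrays, from cells transfected with a mixture of 3 duplexes against NF90. NF90 binds double-stranded RNA. The siNTC group had 2 arrays from cells given a negative control siRNA. All cells were grown in medium with 25 mM glucose and 15% serum, and transfection used a lipid reagent in both groups. The level of the siRNA's target was not analysed here, so the arrays are described by their labels. The labels do not say whether a group's arrays are separate cultures, and p-values then measure only the spread between arrays, which may be technical. Whole-culture RNA was measured, so a change in RNA per cell and one in the share of cells cannot be told apart. The arrays were Affymetrix Mouse Gene 2.1 ST. Values are log2 as deposited, and array medians lay between 1.65 and 1.68. All 13 beta cell markers measured, with Ins2 and Pdx1 included, reached the all-gene median level. So did 5 of 6 markers of other endocrine cells, among them Gcg, the glucagon gene (mean level 8.73), and Sst, the somatostatin gene (6.75, 6.745). Of 7 exocrine and duct markers and 11 stromal, endothelial and blood markers, Krt7 and Cd68 did. Of all marker genes Cd68, a lysosomal protein of macrophages, was 2.18-fold higher in siNF90 and Slc2a2, the glucose transporter of beta cells, 2.11-fold lower, both called with the trend prior described below. The other markers moved by less than 1.4-fold. The part of these changes in the results below was not tested.

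Each ribosome carries a single copy of nearly every ribosomal protein, so a cell makes these proteins in step with one another and with ribosomal RNA. Their mRNAs are known for a terminal oligopyrimidine tract at the 5′ end (TOP), through which the growth-sensing kinase mTOR controls their translation. Beta cells spend much of their protein synthesis on insulin. Free ribosomal proteins such as Rpl5 and Rpl11 are also known to bind Mdm2, the ubiquitin ligase of p53.

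Most ribosomal protein genes stood slightly higher in siNF90, and none passed the test across all genes. Of the 67 members, 46 had a difference (siNF90 minus siNTC) above 0, 18 below 0 and 3 at 0. Among all genes 53.1% lay above 0 and 45.8% below. The median difference was 0.13 on the log2 scale (quartiles -0.01 and 0.29), against 0.02 (0.015) for all genes. The 2 siNF90 values exceeded the 2 siNTC values in 31 members and were below them in 3, which are 46.3% and 4.48% of the members. Such separation (upward or downward) held in 21.9% of all genes upward and 17.9% downward. These genes were measured on the same 4 arrays and are not independent of one another, so the counts are a description.

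No member had a limma adjusted p under 0.05, as was so for 0.0% of all genes, and the smallest adjusted p of a member was 0.358. Without adjustment, 11 members were higher and 1 lower at a p under 0.05, against 5.87% and 4.41% of all genes. When the variance prior was let follow gene level, a setting called the trend here, 3 members rose and none fell, against 0.234% and 0.221% of all genes. These were Rplp1, Rpl41 and Rpl32. A robust prior called no member.

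**Figure D1:**
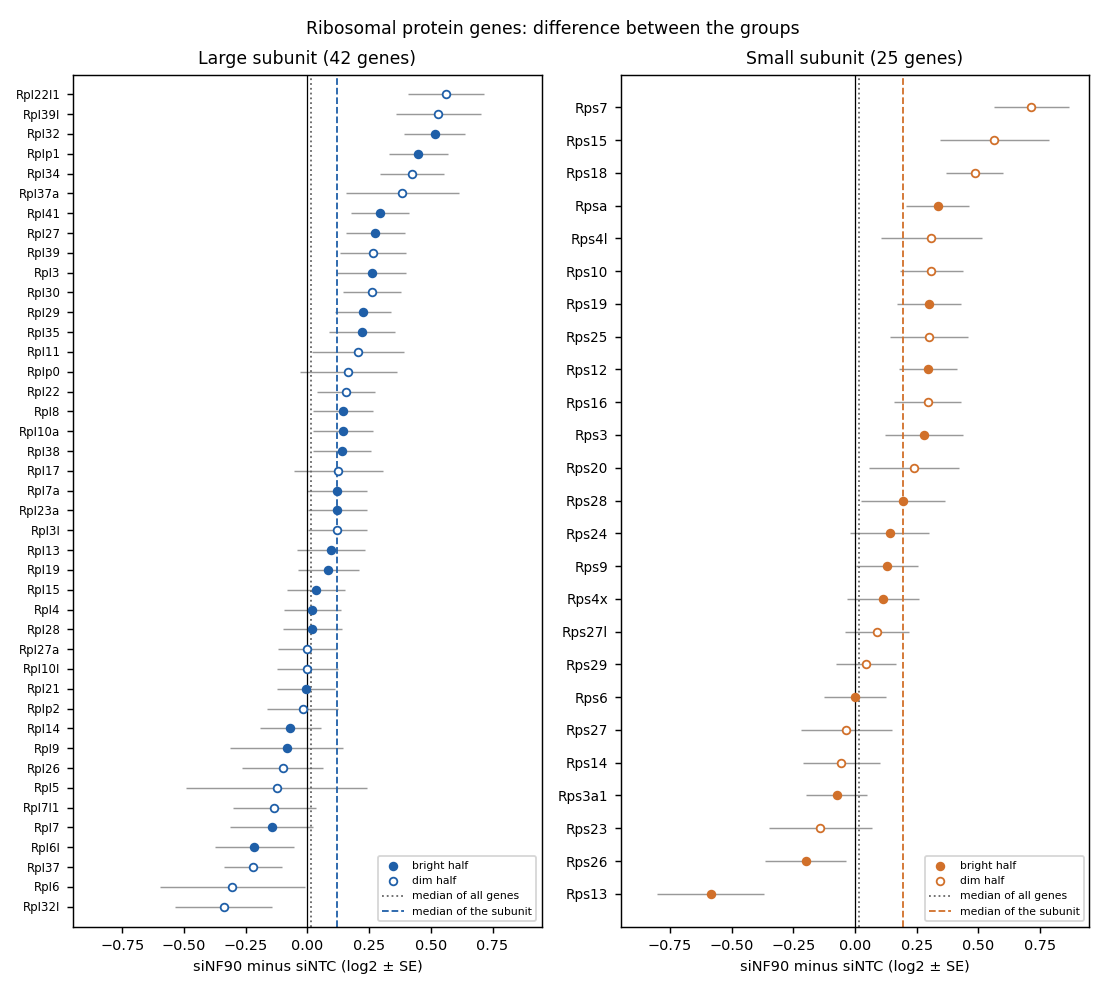
Difference between the groups (siNF90 minus siNTC, log2) for each of the 42 large subunit genes and 25 small subunit genes, with bars for the standard error of the limma fit. Filled points are the 34 brighter genes and open points the 33 dimmer ones; most points lie right of 0, with subunit medians of 0.12 and 0.20 beside an all-gene median near 0.02.

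Over all members the shift was seen on both siNF90 arrays and was larger on the first. Each value was set against the mean of its gene over the 4 arrays. The median of these deviations over the members was -0.03 and -0.08 on the siNTC arrays, 0.11 on the first siNF90 array and 0.05 on the second. Over all genes the same medians lay between -0.02 and 0.01. Without the second siNF90 array the median difference of the members was 0.17, and without the second siNTC array it was 0.10 (0.095).

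**Figure D2:**
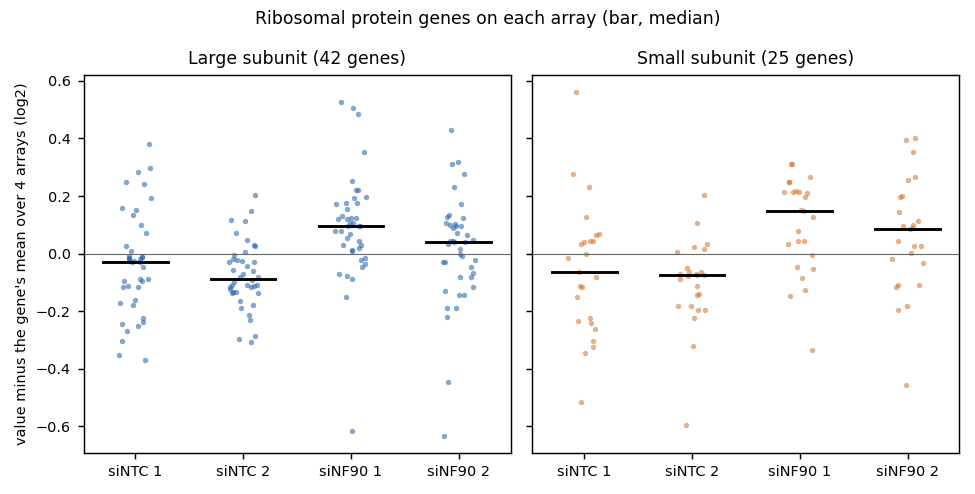
Deviation of each gene's value from its own mean over the 4 arrays (log2), by array, for large and small subunit genes, with a bar at the median. The medians lie below 0 on both siNTC arrays and above 0 on both siNF90 arrays in each subunit.

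The subunits were compared by their medians, without a test. Large subunit genes had a median difference of 0.12, with 28 of 42 above 0, 12 below and 2 at 0. Small subunit genes had a median of 0.20 (0.195), with 18 of 25 above 0, 6 below and 1 at 0. Separation upward was found in 20 large subunit genes (47.6%) and 11 small subunit genes (44.0%). The large subunit median was lower than the small one by -0.08 (-0.075), and by -0.07 over standard proteins alone. This gap came mostly from dim genes. It was -0.02 (-0.015) between the 22 large and 12 small subunit genes of the brighter 34, and -0.17 between the 20 and 13 of the dimmer 33. It was -0.04 among genes at or above the all-gene median, and -0.05 without the first siNTC array. By array, the median deviation of the large subunit minus that of the small one was 0.04 and -0.01 in siNTC and -0.05 and -0.05 (-0.045) in siNF90. Over all members the siNF90 values both lay below the siNTC values. This also held in the dimmer genes, but not among standard proteins or the brighter genes. For standard proteins the second array of each group gave -0.005, so the groups touched. For the brighter genes the siNTC arrays gave -0.04 and -0.02. The first siNF90 array gave -0.05 there, and the second gave 0.07, above both siNTC arrays. The 12 brighter small subunit genes alone had median deviations of 0.02 and -0.08 in siNTC and 0.15 and -0.03 in siNF90. In them the second siNF90 array lay below the first siNTC array. These differences by array were not tested.

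Brightness on an array depends on the probes as well as on the RNA, so levels of different genes were not compared as amounts. Members were split at their own median level of 5.23 over the 4 arrays, which does not use the groups. The 34 bright members had a median difference of 0.13 (0.125), with 25 above 0. Of these, 18 were separated upward and only Rps13 downward. The 33 dim members had a median of 0.16 (0.155), with 21 above 0, 13 separated upward and 2 downward. The sign of the gap between these medians (-0.03) turned without the first siNTC array (0.03) or the second siNF90 array (0.03). Dim members varied more between arrays of a group. The median gap between the siNTC arrays was 0.18 in the dimmer genes and 0.10 (0.095) in the brighter ones, and between the siNF90 arrays 0.21 and 0.11 (0.105).

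Among all genes of that brightness, differences were balanced between the directions. Of the 4060 genes at or above the same level, 48.9% had a difference above 0, and 28.1% were separated upward and 28.6% downward. Their median difference was -0.01 (-0.005). Of the 18120 genes below that level, 54.0% had a difference above 0, 20.5% were separated upward and 15.5% downward, with a median of 0.02. At levels of 8 and above there were 13 members, of which 11 lay above 0 with a median of 0.10 (0.095). All 333 genes at that level had 44.4% above 0 and a median of -0.02 (-0.015). No test of this contrast was run, and the limit of 8 was chosen after the values were seen.

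**Figure D3:**
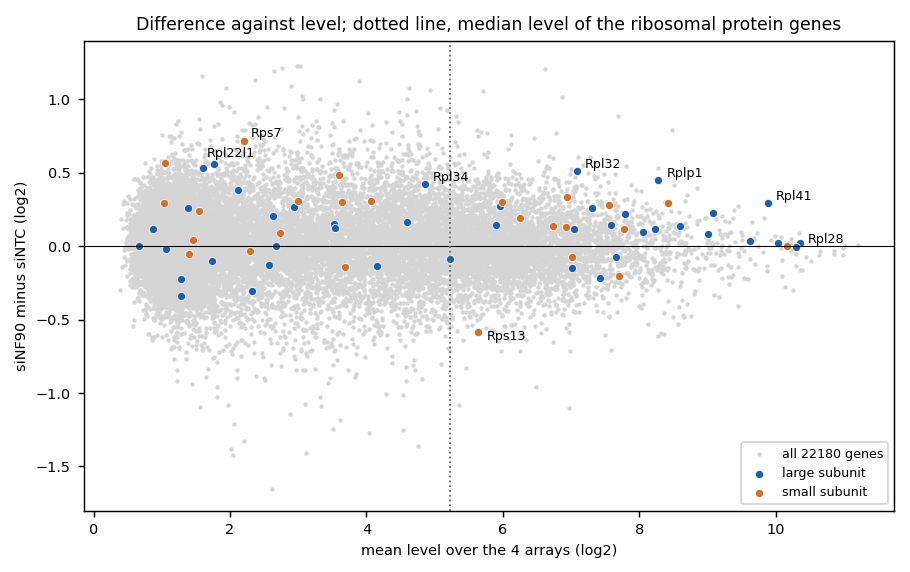
Difference between the groups (log2) against the mean level over the 4 arrays (log2) for all 22180 genes (grey) and for ribosomal protein genes of the large and small subunit. Rps7 (0.72) and Rpl22l1 (0.56) are high at a low level, Rpl32 (0.52), Rplp1 (0.45) and Rpl41 (0.30) at a high level, and Rps13 (-0.59) is the lowest member.

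Of the 6 brightest members, Rpl41 alone differed by more than 0.04. Rpl28, a large subunit protein, was measured at 10.31 and 10.38 in siNTC and at 10.31 and 10.42 in siNF90. Rpl21 stood at 10.32 and 10.27 against 10.27 and 10.31. Rps6, the substrate of S6 kinase in the small subunit, stood at 10.23 and 10.10 against 10.12 and 10.21, with means equal in both groups. The groups overlapped in all these genes. Rpl4, which lines the peptide exit tunnel, differed by 0.02, and Rpl15 by 0.04 (0.035), with a gap of 0.01 between the groups. The standard error of these differences was between 0.116 and 0.124.

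The 3 members called with the trend were all of the large subunit and bright. Calls with the trend lay mostly among bright genes. Of the 4060 genes at or above the members' median level, 37 were called higher and 37 lower. Of the 18120 genes below it, 15 were called higher and 12 lower. Rplp1 (probe set 17527927) encodes an acidic protein of the P stalk, which recruits the GTPases of translation. It was measured at 8.01 and 8.10 in siNTC and at 8.5 and 8.51 in siNF90. The siNF90 arrays lay clear above, by 0.45 ± 0.12 (log2, SE), which is 1.37-fold (limma, adjusted p = 0.391, and 0.0227 with the trend). Rpl41 (17240595), the smallest ribosomal protein, stood at 9.71 and 9.77 in siNTC and at 10.06 and 10.01 in siNF90. The groups did not overlap, and the difference was 0.30 ± 0.12, or 1.23-fold (limma, adjusted p = 0.481, and 0.034 with the trend). Rpl32 (17469936) stood at 6.78 and 6.87 in siNTC and at 7.28 and 7.40 in siNF90, also without overlap. Its difference was 0.52 ± 0.12, or 1.43-fold (limma, adjusted p = 0.36, and 0.0389 with the trend).

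Among other large subunit genes, Rpl34 was measured at 4.74 and 4.55 in siNTC and at 5.11 and 5.03 in siNF90, a difference of 0.43 (0.425) ± 0.13. Rpl29 stood at 8.97 and 8.98 against 9.21 and 9.19, with the arrays of each group within 0.02 of each other. Its difference was 0.23 (0.225) ± 0.12, or 1.17-fold. Rpl27 and Rpl30 were separated upward with differences of 0.28 (0.275) and 0.26, Rpl30 from a level of 1.25 (1.255) in siNTC. A dimmer probe set of Rpl27 (17256723) differed by -0.475, with overlap. Rpl35, at the mouth of the exit tunnel, was separated upward by 0.22, which was 0.11 (0.105) without the first siNTC array and 0.34 (0.335) without the second. Rpl37a stood at 1.86 and 1.98 against 2.64 and 1.97, high on the first siNF90 array alone. Rpl39, a protein of the exit tunnel, stood at 2.70 and 2.91 against 3.13 and 3.01. Rpl38, Rpl8, Rpl10a, Rpl23a and Rpl7a were separated upward by smaller differences, between 0.12 and 0.15 (0.145). None of these passed over all genes or with the trend.

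Lower values in the large subunit were small or uneven. Rpl37 was measured at 1.43 and 1.35 in siNTC and at 1.19 and 1.15 in siNF90, so the groups did not overlap, at a low level. Rpl6 stood at 2.51 and 2.43 against 1.70 and 2.63. Only the first siNF90 array was low, and without it the difference turned from -0.31 (-0.305) to 0.16. Rpl7 differed by -0.15 (-0.145), Rpl14 by -0.07 and Rpl9 by -0.09 (-0.085), with overlap between the groups. Without the first siNTC array, Rpl7 turned to 0.07 (0.065) and Rpl9 to 0.26 (0.255). Rpl27a was 0 and Rpl17 0.13 (0.125), both with overlap.

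In the small subunit, Rps7 (17280392) had the largest difference of any member. It was measured at 1.68 and 2.00 in siNTC and at 2.51 and 2.60 in siNF90. Both siNF90 arrays lay above, by 0.72 (0.715) ± 0.15, or 1.64-fold (limma, adjusted p = 0.358, and 0.189 with the trend), but the siNTC level lies near the median of all genes, 1.85 (1.845), and the table gives no measure of background. Rps18 (17547769) stood at 3.34 and 3.38 against 3.82 and 3.87. The arrays of each group were close, and the difference was 0.49 (0.485) ± 0.12, or 1.4-fold (limma, adjusted p = 0.36). Its dimmer probe sets were less even. One (17289392) stood at 1.58 and 1.48 against 1.77 and 2.26, and the other (17343692) overlapped, with a difference of 0.04 (0.035). Rpsa, the laminin receptor homologue, stood at 6.72 and 6.83 against 7.19 and 7.03, a 1.26-fold difference. Rps12 stood at 8.27 and 8.28 against 8.62 and 8.52, which is 1.23-fold and clear of the siNTC arrays.

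Further small subunit genes were separated in the same direction. Rps19, whose human gene is often mutated in Diamond-Blackfan anaemia, was measured at 5.75 and 5.92 in siNTC and at 6.20 and 6.07 in siNF90. Rps3, a protein of the mRNA entry channel, stood at 7.6 and 7.24 against 7.64 and 7.76, so the first siNTC array lay just under the siNF90 arrays. Rps10, Rps25, Rps16, Rps15 and Rps9 were also separated upward, with differences of 0.31, 0.30, 0.30 (0.295), 0.57 (0.565) and 0.13. Rps15 lay at 1.08 and 0.45 in siNTC, far below the median of all genes, and its difference was 0.25 without the second siNTC array. Rps4x, Rps24 and Rps28 had differences of 0.12 (0.115), 0.14 and 0.20 (0.195), with overlap. Without the first siNF90 array, Rps24 turned to -0.04 and Rps28 to -0.02.

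Rps13 (17493182) was the lowest member and the one lower member at an unadjusted p under 0.05. It was measured at 6.20 and 5.66 in siNTC and at 5.51 and 5.18 in siNF90. Both siNF90 arrays lay below, by -0.59 (-0.585) ± 0.22, or 1.5-fold (limma, adjusted p = 0.459, and 0.226 with the trend). The spread within siNTC was of a like size: without the first siNTC array the difference was -0.32 (-0.315), and without the second -0.86 (-0.855). Rps26, at the mRNA exit channel, differed by -0.20, Rps23 by -0.14 and Rps3a1 by -0.08 (-0.075), with overlap between the groups. Rps23 turned to 0.13 (0.125) without the first siNF90 array.

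Proteins of one substructure did not share one value. In the P stalk, Rplp1 differed by 0.45, Rplp0, its anchor on the ribosome, by 0.17 (0.165) ± 0.20 and Rplp2, the partner of Rplp1, by -0.02 ± 0.14. Rplp0 stood at 4.57 and 4.46 in siNTC and at 4.95 and 4.41 in siNF90, so only the first siNF90 array was high. A dimmer probe set of Rplp0 (17441191) was separated downward, at 2.39 and 2.08 against 1.87 and 1.88. Rplp2 stood at 0.97 and 1.18 against 1.16 and 0.95, among the lowest levels of the members, near the bottom of the range of the arrays. The differences between these genes were not tested. Of the proteins that bind 5S ribosomal RNA, Rpl5 was measured at 2.82 and 2.45 in siNTC and at 3.08 and 1.94 in siNF90, with the siNF90 arrays on either side of siNTC and a difference of -0.13 (-0.125) ± 0.37. Rpl11 stood at 2.28 and 2.78 against 2.71 and 2.76, and its difference of 0.21 (0.205) became -0.05 (-0.045) without the first siNTC array. Rpl26, which promotes translation of p53 mRNA, differed by -0.10 ± 0.16. Of the 5 measured genes of this list, which also holds Rps7 and Rps27l, Rps7 alone was separated upward, a share no higher than the 21.9% of all genes.

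Of 7 measured paralogues, some of which can replace a standard protein in some tissues, 4 lay below the median level of all genes. Rpl22l1, the paralogue of Rpl22, was measured at 1.39 and 1.57 in siNTC and at 1.89 and 2.19 in siNF90. The groups did not overlap, and the difference was 0.56 ± 0.15, while Rpl22 differed by 0.16 (0.155) ± 0.12. Rpl39l, known from the testis, stood at 1.36 and 1.32 against 2.09 and 1.65, a difference of 0.53 ± 0.17. Of its siNF90 arrays the first was the higher, and without it the difference was 0.31. The siNTC values of both paralogues lay below the median of all genes. Rps27l, a p53 target, stood at 2.71 and 2.65 against 2.67 and 2.87, with overlap and a difference of 0.09 ± 0.13. Its parent Rps27 differed by -0.04 (-0.035). Rps4l differed by 0.31 ± 0.21 and Rpl7l1 by -0.14 (-0.135) ± 0.17, both with overlap. Rpl3l, known from striated muscle, and Rpl10l, known from the testis, lay at 0.87 and 0.66 over the 4 arrays, the lowest levels of all members. Rpl6l and Rpl32l, outside the fixed list of paralogues, differed by -0.22 (-0.215) and -0.34.

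**Figure D4:**
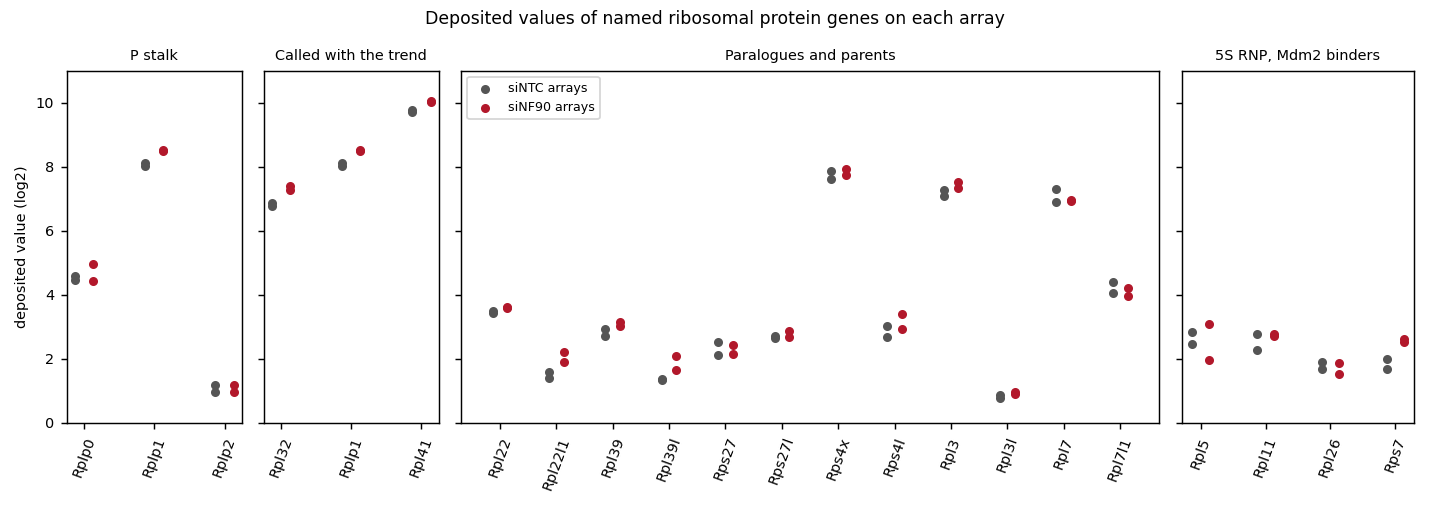
Deposited log2 values on each array for genes of the P stalk, the 3 genes called with the trend, paralogues beside their parent genes, and 4 genes whose proteins bind 5S RNA or Mdm2; grey points are the siNTC arrays and red points the siNF90 arrays. The groups separate in Rplp1, Rpl32, Rpl41, Rpl22, Rpl22l1, Rpl39, Rpl39l, Rpl3, Rpl3l and Rps7; heights of different genes are not amounts to be compared.

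Low values were also found for proteins of every ribosome. Among the 67 members 14 lay below the median level of all genes, and 9 of these are standard proteins. They were Rps15, Rps16, Rplp2, Rpl37, Rpl30, Rps14, Rps29, Rps20 and Rpl26, with mean levels from 1.03 to 1.73. Their median difference was 0.05 (0.045), with 5 above 0 and 4 below, 3 separated upward (33.3%) and 1 downward (11.1%). The 49 standard proteins at or above that level had a median of 0.14, with 36 above 0, 25 separated upward (51.0%) and 1 downward (2.04%). Among all genes 53.1% lay above 0, 21.9% were separated upward and 17.9% downward.

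Several genes had more than one probe set under the same symbol, and these did not always go the same way. The 67 genes carried 108 such probe sets, and 25 genes had at least 2 of them. Within a gene they differed in mean level by a median of 4.70 (4.695), up to 7.93 in Rpl41. Differences had the same sign in all probe sets of 14 genes and both signs in 11. For the analysis above the brightest was used. The annotation used here does not say which locus each probe set reads, so probe sets under one symbol may sit on different loci, such as processed pseudogenes. Rpl3, which reaches towards the catalytic centre of the large subunit, had both signs. Its brightest probe set (17533413) stood at 7.27 and 7.07 in siNTC and at 7.52 and 7.34 in siNF90. The second (17319403) stood at 5.64 and 5.43 against 5.20 and 5.42. It was separated in the other direction, but only just, with 5.42 in siNF90 beside 5.43 in siNTC. The third (17319389) overlapped around 2. In Rpl27, Rplp0, Rps24 and Rps26 too the dimmer probe sets held the opposite sign. They differed by -0.475 in Rpl27, -0.36 in Rplp0, -0.28 and -0.165 in Rps24 and 0.295 in Rps26. Each of these was larger in size than the difference of the brightest probe set. Those of -0.36 in Rplp0 and -0.28 in Rps24 were separated downward, and the others overlapped.

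Rpl41 and Rps12 held together better. The 5 probe sets of Rpl41 differed by 0.03 (0.025) to 0.40 (0.395), and 3 of them were separated upward. The 8 probe sets of Rps12 differed by 0.21 (0.205) to 0.30 (0.295), all separated upward, but 6 of them carried identical values on every array and so give 3 distinct measurements. Rps19 and Rpl23a also had probe sets with identical values. In Rplp1 the second probe set (17496653), at a level of 2.03, differed by 0.06 with overlap. The 41 probe sets not used had a median difference of 0.14, with 30 above 0, 18 separated upward and 5 downward. Counting identical values once left 36, with a median of 0.11 (0.1125), 25 above 0, 13 separated upward and 5 downward. A further 57 probe sets named a ribosomal protein gene beside other symbols and were not assigned to a gene. Their median difference was 0.11, with 40 above 0, 17 below, 23 separated upward and 7 downward. Among all genes, by their brightest probe sets, 53.1% lay above 0, 21.9% were separated upward and 17.9% downward.

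**Figure D5:**
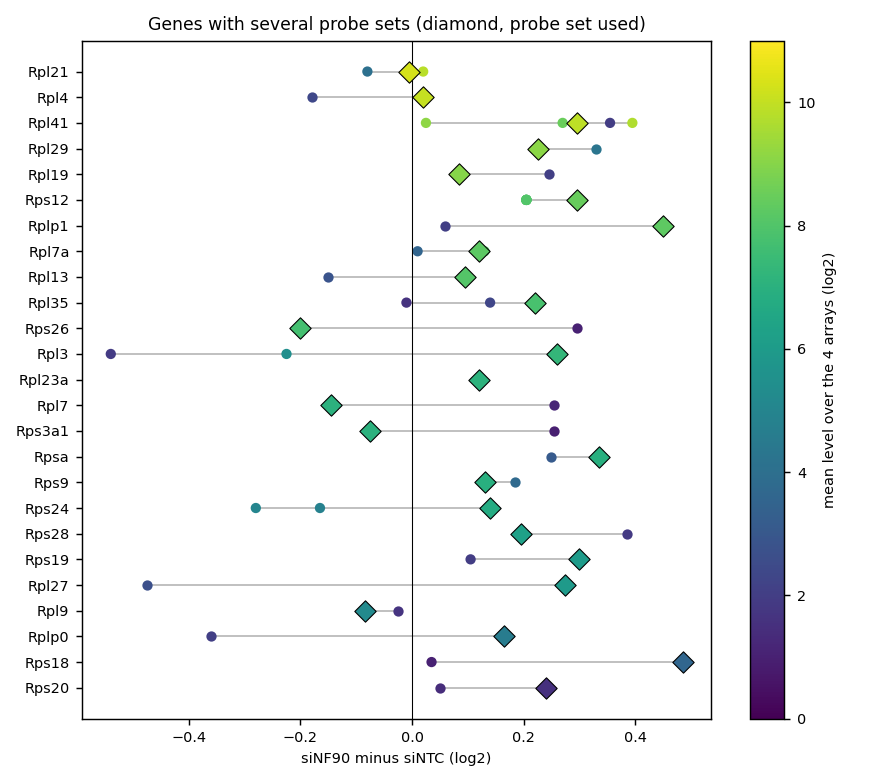
Difference between the groups (log2) for every probe set of the 25 genes with several, coloured by mean level over the 4 arrays (log2), with a diamond for the probe set used. In 11 genes the points lie on both sides of 0, and in Rpl41 and Rps12 all lie above it.

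Start-site sequence is shown for the members with the smallest p in each direction that the RefSeq promoter table holds (assembly GRCm38.p6), and for Rpl41, added after its values were seen. The table held 52 of the 67 members. As the locus that a probe set reads is not given, a start shown here need not be that of the RNA measured. Each line runs 5′ to 3′ on the gene's strand, with 60 bases before the annotated start and 15 from it on. Capitals mark CCGGAAG on either strand (CTTCCGG on the other), a motif bound by factors of the ETS family such as GABP, and pyrimidine tracts of at least 8 bases within 20 bases of the start. Rps7 lies at chr12:28635939-28636013 (minus strand), Rps18 at chr17:33955651-33955725 (minus), Rpl41 at chr10:128549154-128549228 (minus), Rps13 at chr7:116334176-116334250 (minus) and Rpl37 at chr15:5116553-5116627 (plus).
Rps7: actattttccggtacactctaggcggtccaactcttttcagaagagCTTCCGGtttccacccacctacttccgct
Rps18: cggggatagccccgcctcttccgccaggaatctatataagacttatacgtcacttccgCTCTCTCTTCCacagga
Rpl41: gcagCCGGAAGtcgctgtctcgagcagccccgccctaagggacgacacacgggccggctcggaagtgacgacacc
Rps13: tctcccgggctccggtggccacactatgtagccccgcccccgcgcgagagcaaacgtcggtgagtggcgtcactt
Rpl37: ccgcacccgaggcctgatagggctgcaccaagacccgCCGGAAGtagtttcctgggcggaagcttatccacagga

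In the stretches shown, Rps18 has a pyrimidine tract at the annotated start, and Rps7, Rpl41 and Rpl37 carry the ETS-type motif. Rps18 has 2 copies of that motif in the full window described next, outside the stretch shown. Rps13 has no copy in its full window and no tract near its start. Over the full windows of 250 bases before and 50 after the start, 23 of 52 members (44.2%) held CCGGAAG on either strand, against 9.93% of the 27025 genes in the table. A tract of at least 8 pyrimidines within 20 bases of the start was found in 26 of 52 members (50%) and in 18.4% of all genes. The shares were alike in the subunits, with CCGGAAG in 14 of 31 large and 9 of 21 small subunit genes and the tract in 16 and 10. TATAAA, on either strand, stood in 6 members (11.5%), against 15.7% of all genes, and AAGATGGC, the core of the YY1 motif, in 3 (5.77%), against 3.19%. Annotated starts can lie some bases from the true one, so a missing tract says only that these letters are not there.

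Differences between the groups were also set against the motifs. Members with CCGGAAG had a median difference of 0.14, with 15 of 23 above 0, and those without it 0.12, with 20 of 29 above 0. Members with the tract had a median of 0.09 (0.0925), with 18 of 26 above 0, and those without it 0.16, with 17 of 26 above 0. The groups also differed in brightness. The median level was 6.825 with the tract and 3.92 without it, and 3.635 with CCGGAAG and 5.64 without it. These values are descriptions, and no test was run on them.

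Genes listed for ribosome assembly and ribosomal RNA synthesis had a median difference near that of all genes. Of 56 listed, 53 were measured, all at or above the median level. The list was kept as written and holds Aar2, better known as a splicing factor. In this list 27 lay above 0 and 26 below, with a median of 0.01 (0.005), and none passed with limma over the whole table or with the trend. At an unadjusted limma p under 0.05, 5 were higher (Bop1, Pes1, Eif6, Sdad1 and Aar2) and none lower, against 5.87% and 4.41% of all genes. Bop1 and Pes1, partners in a complex that matures the large subunit, were measured at 4.4 and 4.46 in siNTC against 5.0 and 4.80, and at 5.91 and 5.89 against 6.22 and 6.34. Both were clear of siNTC, by 0.47 ± 0.13 and 0.38 ± 0.12, and Eif6, which keeps the subunits apart, differed by 0.36 ± 0.12. In the other direction Rrs1 differed by -0.29 (-0.285) ± 0.12, Utp4 by -0.27 ± 0.14 and Nmd3, the export adaptor of the large subunit, by -0.21 (-0.205) ± 0.13.

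Other mRNAs with a TOP tract had 12 of 17 measured genes above 0 and 5 below, of 21 listed, with a median of 0.08 (0.075). Among all genes 53.1% lay above 0. In the list 8 genes (47.1%) were separated upward and 1 (5.88%) downward, against 21.9% and 17.9% of all genes. The list also holds Fau, the small subunit precursor named above, which differed by 0.15 and was separated upward. The list's median was 0.03 (0.025) without the second siNTC array and 0.13 (0.125) without the second siNF90 array. Tpt1, a growth-related protein, was measured at 6.13 and 6.15 in siNTC and at 6.49 and 6.71 in siNF90, a difference of 0.46 ± 0.13. Eef1d, an exchange factor of translation elongation, differed by 0.29 (0.285) ± 0.13 and Pabpc1, the poly(A)-binding protein, by 0.22 ± 0.14. Eef1a1, the most abundant elongation factor, stood at 10.67 on both siNTC arrays and at 10.67 and 10.60 in siNF90. Npm1, a nucleolar chaperone also in the list of ribosome assembly, differed by -0.23 (-0.225) ± 0.16, Eif3e by -0.10 and Snhg1, a host of small nucleolar RNAs, by -0.08 (-0.075). In this list none passed over all genes or with the trend.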

How the data were processed

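The authors deposited log2 values for 41345 probe sets on 4 arrays, for which the submitters' processing notes name Transcriptome Analysis Console. How background, normalization and summarization were handled is not given in the sources used. Base 2 was taken from the range of the values. Of the probe sets, 23521 had 1 gene symbol in the platform annotation, and the one with the highest mean was kept per gene (22180 genes). All 67 members matched RefSeq by gene identifier.

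Differences (siNF90 minus siNTC) were fitted to all genes without a filter with limma 3.58.1 in R 4.3.3 (lmFit, eBayes without a trend) and two-sided p-values, adjusted by Benjamini-Hochberg over the 22180 genes at a threshold of 0.05. Residual degrees of freedom were 2, and the prior added 3.92. Exact permutation of 2 arrays against 2 cannot go below p = 0.333, so none was used. The number of arrays limits the precision.

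The members and lists were chosen with earlier results of these data known. Named are the listed P stalk, 5S RNA or Mdm2-binding and paralogue genes, the 10 members per direction with the smallest p, the 3 brightest and dimmest, members with several probe sets, and 3 genes per direction from each pathway list. Other names were chosen after their values were seen. Alternatives were a trend or robust prior, the replicate number as a block, quantile normalization, median centring, a level filter, averaging probe sets by gene, keeping every probe set and leaving out each array.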

Additional observations from a re-analysis of the deposited data

How the results depend on the processing

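At an adjusted p under 0.05 no gene passed by limma under the planned fit, a robust prior, quantile normalization, median centring, a level filter, the mean of probe sets, every probe set or without any 1 array. By the planned fit 2281 genes had an unadjusted p under 0.05. With the trend 101 genes passed, 3 of them members. The labels give both groups the numbers 1 and 2 without saying that a number marks a shared culture or day, and the deviations of same-numbered arrays correlated at -0.02 across genes. With the replicate number as a block no gene passed. As each group holds both numbers, the block cannot change the differences themselves, only their errors. The members' median of 0.13 under it is therefore not a check. The members' median lay between 0.095 and 0.17 without each array in turn. The other ranges without 1 array were 0.145 to 0.215 for the small subunit, -0.0675 to -0.05 for large minus small, -0.1125 to 0.0325 for bright minus dim, 0.00 to 0.02 for ribosome assembly and 0.025 to 0.125 for other TOP mRNAs. With probe sets averaged by gene the subunit medians were 0.0708 (large) and 0.1575 (small), and ribosome assembly 0.035. Median centring gave -0.015 for ribosome assembly. The level filter gave -0.0425 for large minus small. Splitting at the median level of all genes gave 0.0575 for bright minus dim, which was also above 0 with quantile normalization (0.0125) and over every probe set (0.015). Over every probe set 76 of 108 lay above 0. The cause of these moves was not tested. Of 660 values of 61 named genes under alternatives, 657 stayed on their side of the threshold and 3 passed it, Rplp1, Rpl41 and Rpl32 with the trend. As no gene at all passed under the other alternatives, this count does not measure how stable the differences were. Of the 61 named genes 17 changed sign without some array, 2 of them with a difference over 0.2 in size (Rpl6 and Rpl11).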
